A study of Mus musculus with 11 samples.

Results

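The miR-15/16 family was read here through 4 mature microRNAs (miRNAs), mmu-miR-15a-5p, mmu-miR-15b-5p, mmu-miR-16-5p and mmu-miR-195a-5p, named below without the species prefix, which were taken by name from the 1247 mouse miRNAs on the array. All 4 were found, and all 4 passed the filter on detection that left 369 miRNAs for testing. Their signals were measured on 11 one-colour Agilent miRNA arrays, each hybridised with RNA labelled as that of cardiac macrophages of the mouse. Every mouse was Cx3cr1GFP/+, so that the cells of all groups, controls included, carried the GFP knock-in at the fractalkine receptor gene, and animals were 2 to 3 months old. Day 0 is the uninfarcted heart of animals without surgery (2 arrays). Days 3, 7 and 30 (3 arrays each) are times after cryoinjury, a freezing lesion used as a model of myocardial infarction. Cells of days 0, 7 and 30 were labelled Ly6clow/CX3CR1high, the profile of resident and reparative macrophages, and cells of day 3 were labelled Ly6chigh/CX3CR1low, the profile of inflammatory monocyte-derived cells. Day 3 therefore differs from the other groups in the labelled population as well as in time, and these cannot be told apart.

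A miRNA guides a silencing complex to messenger RNAs, mainly by pairing of its seed, bases 2 to 8, and miRNAs with a common seed share most of their predicted targets. The miR-15/16 family is known for restraining the cell cycle through cyclins and cyclin-dependent kinases, and for lowering the survival factor Bcl2. Loss of the locus that holds miR-15a and miR-16 is frequent in chronic lymphocytic leukaemia, and miR-195 has been studied in the heart for its part in the postnatal arrest of cardiomyocyte division.

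The mature sequences are shown because the family is defined by them and because the array has to tell them apart. They are from RefSeq (GRCm38.p6), run 5′ to 3′, and have the seed in capitals.
miR-15a-5p: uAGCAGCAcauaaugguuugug
miR-15b-5p: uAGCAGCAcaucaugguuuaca
miR-16-5p: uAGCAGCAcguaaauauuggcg
miR-195a-5p: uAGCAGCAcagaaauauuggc
All 4 members matched an entry, and all 4 had the seed AGCAGCA. miR-15a-5p and miR-15b-5p were identical over their first 11 bases and differed at 4 of 22 positions. miR-16-5p and miR-195a-5p differed at 2 of 21 compared positions, the closest pair of the 4. miR-15a-5p and miR-16-5p differed at 6 of 22 positions and miR-15b-5p and miR-16-5p at 8 of 22. How far the probes of such similar miRNAs respond to each other was not tested.

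The members come from 3 pairs of neighbouring miRNA genes. Mature miR-15a-5p lies at chr14:61632075-61632096 on the minus strand, 117 bases from the miR-16-5p copy of Mir16-1 (chr14:61631936-61631957), and both lie within the bounds of the long noncoding RNA gene Dleu2. miR-15b-5p lies at chr3:69009775-69009796 on the plus strand, 121 bases from the miR-16-5p copy of Mir16-2 (chr3:69009918-69009939), and both lie within the bounds of Smc4, which encodes a subunit of condensin. miR-195a-5p lies at chr11:70235062-70235082 on the plus strand, 310 bases from miR-497a-5p. The product of Mir16-1 and that of Mir16-2 are the same mature sequence, so the signal of miR-16-5p is the sum of both loci. Coordinates are those of GRCm38.p6; the array files give names only.

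The arrays differed in overall brightness, which bears on every comparison of levels. The 75th percentile over the 126 miRNAs that every array detected in scanner units spanned 55.7 to 163 (day 0), 805 to 1607 (day 3), 114 to 323 (day 7) and 1453 to 2304 (day 30). Every array of days 3 and 30 was thus brighter than every array of days 0 and 7. Between these sets brightness and group cannot be told apart. A fit with brightness as a covariate rests there on differences in brightness within groups. Each signal was divided by this value of its array and log2 was taken, and "level" below means this scaled log2 signal. The arrays of day 30 replicates 2 and 3 differed less than the error the scanner gives (squared difference 0.210 times the expected, against 3.03 to 39.0 for the other 9 pairs of replicates) and were averaged and counted as 1 sample, which leaves 10 samples. The pair that differed most, at 39.0, was that of day 0, whose 2 arrays are behind every comparison with the uninjured heart. The labels describe independent biological replicates. On this scale the median change of those 126 miRNAs against day 0 was -0.77 (day 3), -0.21 (day 7) and -1.06 (day 30), and it was 0.63 from day 3 to day 7, -0.57 from day 7 to day 30 and -0.49 from day 3 to day 30.

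The 3 abundant members, miR-15a-5p, miR-15b-5p and miR-16-5p, were detected on all 11 arrays, and miR-195a-5p on 10. The members did not follow the same course. miR-15b-5p peaked at day 3, miR-15a-5p and miR-195a-5p were highest at day 30, and miR-16-5p, the product of both loci, had its highest means at days 3 and 30. All 4 differed across the groups by limma's F test, with an adjusted p of 0.000636 for miR-15a-5p, 0.00191 for miR-15b-5p, 0.00991 for miR-16-5p and 0.0052 for miR-195a-5p. The same test called 78.9% of all tested miRNAs, so that a difference across groups was the common case on these arrays.

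**Figure D1:**
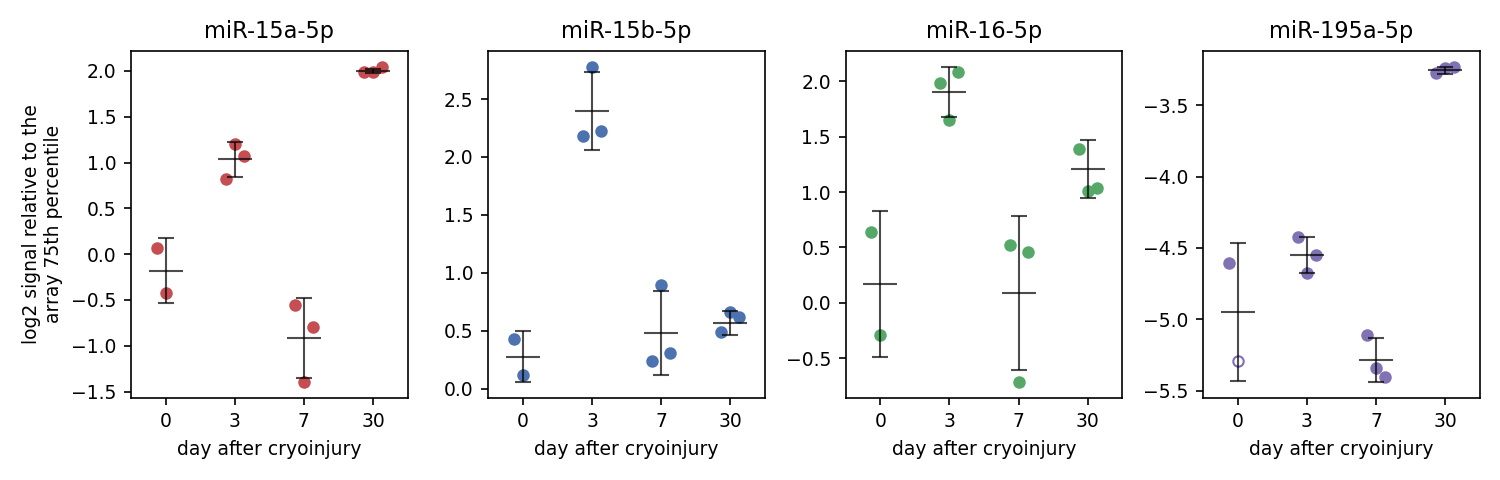
Scaled log2 signal (y axis, relative to the 75th percentile of each array) of the 4 members against day after cryoinjury (x axis); points are arrays, horizontal bars are means and error bars SDs over samples, with day 30 replicates 2 and 3 averaged, and the open point marks the array on which miR-195a-5p was not detected. miR-15a-5p and miR-195a-5p lie highest at day 30 and miR-15b-5p lies highest at day 3; each panel has its own y range.

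miR-15a-5p comes from the Dleu2 locus that is lost in leukaemia. Its raw signal was 172 and 41.4 scanner units at day 0, 1703, 1853 and 3385 at day 3, 220, 43.2 and 150 at day 7 and 9132, 5777 and 7257 at day 30. Its levels were 0.07 and -0.43 at day 0, 0.82, 1.20 and 1.08 at day 3, -0.55, -1.40 and -0.79 at day 7 and 1.99, 1.99 and 2.05 at day 30. No groups overlapped: day 30 was highest, then day 3, day 0 and day 7. Neighbours in this order that did not pass the test were day 30 and day 3 (difference 0.97, SE 0.43, limma adjusted p = 0.105) and day 0 and day 7 (difference 0.73, SE 0.43, adjusted p = 0.24). The rise from day 7 to day 30 was the largest change of any member, 2.92 (SE 0.43, adjusted p = 0.00034), a 7.55-fold difference.

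miR-15b-5p comes from the Smc4 locus. Its raw signal was 220 and 60.6 units at day 0, 4355, 5535 and 7522 at day 3, 380, 211 and 321 at day 7 and 3237, 2292 and 2687 at day 30. Its levels were 0.43 and 0.12 at day 0, 2.18, 2.78 and 2.23 at day 3, 0.24, 0.90 and 0.31 at day 7 and 0.49, 0.66 and 0.62 at day 30. Day 3 stood above every other array. The group means of days 0, 7 and 30 were 0.28 ± 0.22 (SD, n = 2), 0.48 ± 0.36 (n = 3) and 0.56 ± 0.10 (n = 2), and none of the 3 differences between them passed the test (adjusted p = 0.595 to 0.888).

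miR-16-5p is the member made at both the Dleu2 and the Smc4 locus. Its raw signal was 254 and 45.5 units at day 0, 3789, 2523 and 6812 at day 3, 463, 69.3 and 357 at day 7 and 6044, 2929 and 3593 at day 30. Its levels were 0.64 and -0.29 at day 0, 1.98, 1.65 and 2.08 at day 3, 0.52, -0.71 and 0.46 at day 7 and 1.39, 1.01 and 1.03 at day 30. Days 0 and 7 overlapped and held the widest spread (SD 0.66 and 0.70), with replicate 2 the lowest array of each. Slide 2 held replicate 2 of every group and replicate 3 of day 30, and its arrays were the lowest of each group. Day 3 was highest and day 30 lay between it and the other groups, without passing the test against day 3 (-0.70, SE 0.50, adjusted p = 0.291), day 0 (1.03, SE 0.54, adjusted p = 0.117) or day 7 (1.12, SE 0.50, adjusted p = 0.0835).

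miR-195a-5p, the member from the miR-497a cluster, gave a faint signal. It measured 6.71 and 1.42 units at day 0, where replicate 2 did not detect it, 44.9, 31.5 and 68.7 at day 3, 9.35, 2.80 and 6.13 at day 7 and 238, 154 and 187 at day 30. The scanner's error on these was 18.6% on the day 0 array that detected it, up to 32.5% at day 7 and at most 8.44% at day 30. Its levels were -4.61 and -5.29 at day 0, -4.42, -4.68 and -4.55 at day 3, -5.11, -5.34 and -5.40 at day 7 and -3.27, -3.24 and -3.23 at day 30. All arrays of day 30 lay above all others. Days 0, 3 and 7 were not separated by the test (adjusted p = 0.107 to 0.597).

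Because a ratio of signals on the same array does not depend on the factor by which an array is divided, each member was also set against miR-16-5p, and, in a comparison added after the values were seen, miR-15a-5p against miR-15b-5p. Such a ratio can still change with quantile normalization or with the floor on faint signals. The signal of miR-15a-5p was 0.779 and 0.684 times that of miR-15b-5p at day 0, 0.391, 0.335 and 0.450 times at day 3, 0.579, 0.204 and 0.467 times at day 7 and 2.82, 2.52 and 2.70 times at day 30. The ratio was higher on all 3 arrays of day 30 than on any of the 8 arrays of days 0 to 7. Its absolute value compares different probes and is not read. On the log2 scale its means were -0.45 ± 0.13 (n = 2), -1.36 ± 0.21 (n = 3), -1.39 ± 0.79 (n = 3) and 1.44 ± 0.08 (n = 2) at days 0, 3, 7 and 30.

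In the limma fit on signals relative to miR-15b-5p, miR-15a-5p was higher at day 30 than at day 3 by 2.80 (SE 0.57, adjusted p = 0.000544), than at day 7 by 2.83 (SE 0.57, adjusted p = 0.000569) and than at day 0 by 1.89 (SE 0.63, adjusted p = 0.0139). These ratios passed in 47.3%, 9.51% and 6.52% of all tested miRNAs in the higher direction, so that the change against day 3 was shared by many miRNAs, in a comparison in which miR-15b-5p itself fell. The differences among days 0, 3 and 7 did not pass (adjusted p = 0.152 to 0.956), beside 79.3% (day 0 to day 3), 0% (day 0 to day 7) and 77.4% (day 3 to day 7) of miRNAs called. Days 3 and 30 were the brightest groups and overlapped in brightness, and the ratio changed there by 2.75 within slide 1 and 2.96 within slide 2 and by 2.36 with brightness as a covariate (adjusted p = 0.00204). Against the dimmer groups the change with brightness as a covariate was -0.38 for day 0 (adjusted p = 0.995) and 1.17 for day 7 (adjusted p = 0.669), and the change against day 0 missed the threshold without day 30 replicate 1 (1.84, adjusted p = 0.0917).

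**Figure D2:**
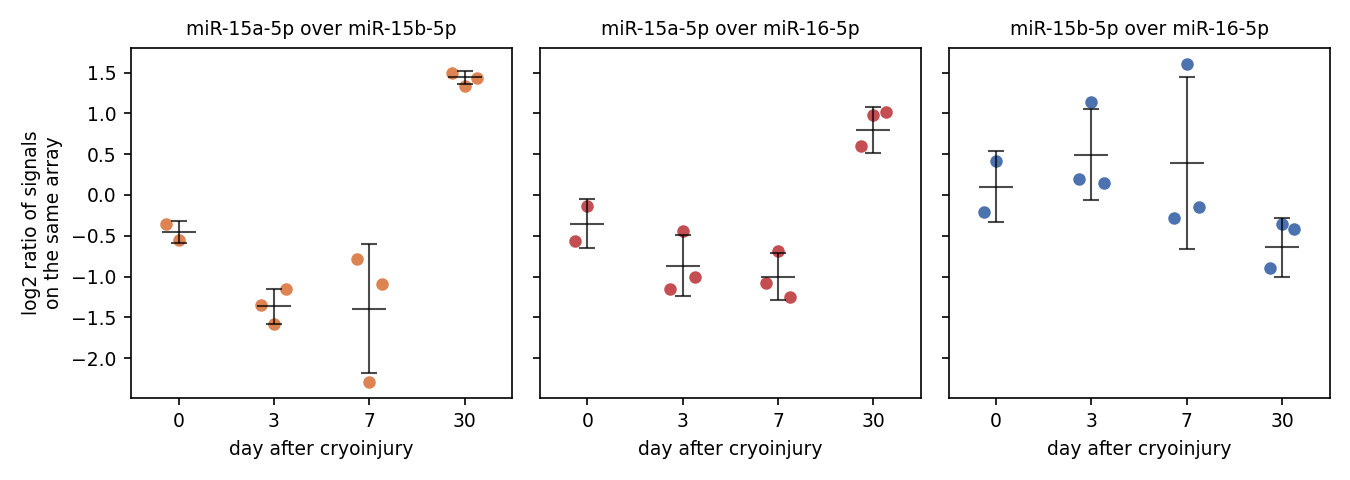
Log2 ratio of the signals of a pair of members on the same array (y axis) against day after cryoinjury (x axis); points are arrays, horizontal bars are means and error bars SDs over samples. Only changes between arrays are read: miR-15a-5p over miR-15b-5p is higher on the 3 day 30 arrays than on the 8 others.

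Relative to miR-16-5p, miR-15a-5p had mean log2 ratios of -0.35 ± 0.30, -0.87 ± 0.37, -1.001 ± 0.29 and 0.80 ± 0.28 at days 0, 3, 7 and 30 (SD, n = 2, 3, 3 and 2). Its rise from day 7 to day 30 passed (1.80, SE 0.58, adjusted p = 0.0273; 3.8% of miRNAs were called higher), and that from day 3 to day 30 did not (1.67, SE 0.58, adjusted p = 0.126). miR-15b-5p relative to miR-16-5p had means of 0.10 ± 0.44, 0.49 ± 0.56, 0.39 ± 1.06 and -0.64 ± 0.36, and none of its 6 comparisons passed (limma adjusted p = 0.241 to 0.907). miR-195a-5p relative to miR-16-5p passed in none either, the nearest being day 3 against day 0 (-1.33, adjusted p = 0.0735) and day 30 against day 3 (1.99, adjusted p = 0.0773). With the slide as a block it passed at day 3 against day 0 (-1.24, adjusted p = 0.0228), at day 7 against day 3 (1.08, adjusted p = 0.0234) and at day 30 against day 3 (1.90, adjusted p = 0.0135). The last also passed with quantile normalization (adjusted p = 0.0313), from the authors' deposited table (0.0264) and with the highest floor (0.0215). So it did with only the groups compared in the fit (0.000493) and with brightness as a covariate (2.37, 0.000563). It missed when each array's 75th percentile came from all its miRNAs (adjusted p = 0.082). Leaving out day 3 replicate 1, 2 or 3 also lost it (0.22, 0.223 and 0.249). Day 7 replicates 1, 2 and 3, left out in turn, gave 0.0988, 0.0266 and 0.114. Day 30 replicates 2 and 3 gave 0.0824 and 0.0736. Dropping day 30 replicate 1, which leaves 1 sample in that group, gave a change of 2.19. Ratios to miR-16-5p were called in 59.5% of miRNAs (day 3 against day 0), 0% (day 7 against day 0), 51.4% (day 30 against day 0), 66.6% (day 7 against day 3), 41.3% (day 30 against day 7) and 6.79% (day 30 against day 3). In each group the slide 2 arrays had a higher ratio of miR-15a-5p to miR-16-5p than those of slide 1. They also had a higher ratio of miR-15b-5p to miR-16-5p, as with 1.61 on day 7 replicate 2 against -0.29 and -0.15 on replicates 1 and 3. With the slide as a block the change of this ratio from day 7 to day 30 passed (-1.21, adjusted p = 0.0333), as did that of miR-15a-5p over miR-16-5p from day 3 to day 30 (1.58, adjusted p = 0.0184). The passing rise of miR-15a-5p missed the threshold when replicate 1 or 3 of day 3 (adjusted p = 0.0534 and 0.0518), replicate 1 or 3 of day 7 (0.0504 and 0.0737) or replicate 1 of day 30 (0.127) was left out.

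The make-up of the family signal followed from these ratios. Shares are of the summed linear signal of the 4 members on an array. Probes of different miRNAs need not respond equally, so a share is not a share of molecules and is compared only between arrays. miR-15a-5p made up 26.3% and 27.8% at day 0, 17.2%, 18.6% and 19.0% at day 3, 20.5%, 13.2% and 18.0% at day 7 and 49.0%, 51.8% and 52.9% at day 30. Its share at day 30 was above that on every other array.

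The share of miR-15b-5p ran the other way. It was 33.7% and 40.7% at day 0, 44.0%, 55.7% and 42.3% at day 3, 35.4%, 64.7% and 38.5% at day 7 and 17.4%, 20.6% and 19.6% at day 30, where all 3 arrays were below all others. The mean share of miR-16-5p stayed between 29.3% ± 4.37 (day 30, n = 2) and 35.7% ± 12.6 (day 7, n = 3), and its groups overlapped. miR-195a-5p held 0.992% ± 0.0521 at day 0, 0.386% ± 0.0686 at day 3, 0.821% ± 0.0749 at day 7 and 1.32% ± 0.0645 at day 30. Less the median signal of undetected miRNAs, its share was 0.413% at day 0, where 1 of 2 arrays did not detect it, 0.370% at day 3, 0.608% at day 7 and 1.31% at day 30. The 4 members together held 0.808% to 2.49% (day 0), 4.78% to 6.16% (day 3), 1.46% to 1.90% (day 7) and 4.75% to 5.16% (day 30) of an array's total miRNA signal. The bright groups were also those in which the family took the larger part.

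**Figure D3:**
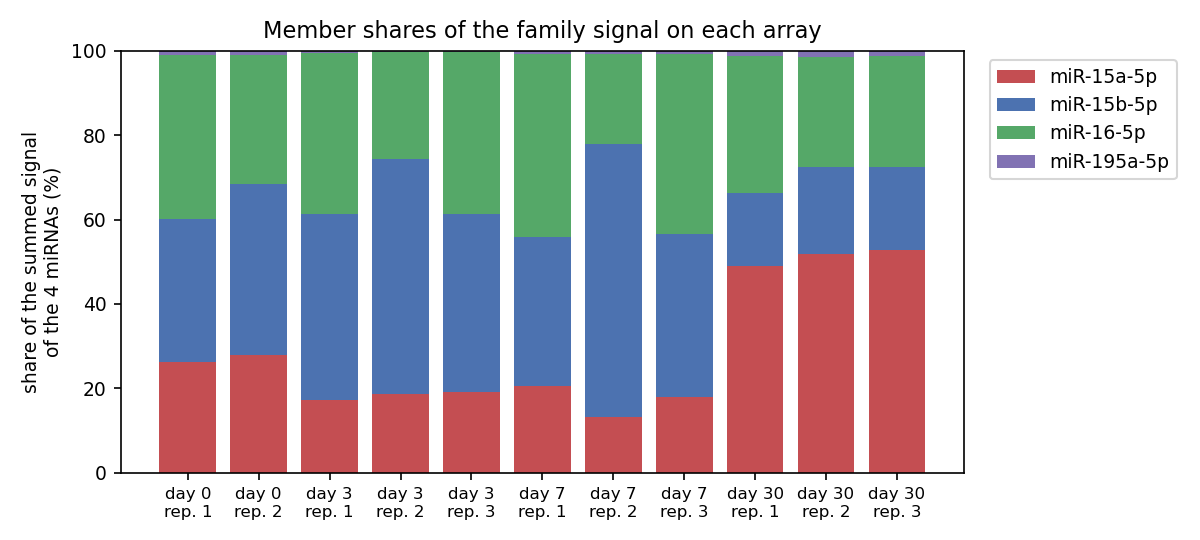
Share of each member in the summed signal of the 4 members (y axis, percent) on each of the 11 arrays (x axis; rep., replicate). miR-15a-5p makes up 49.0% to 52.9% at day 30 and at most 27.8% on the other arrays.

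The first comparison asked how Ly6chigh/CX3CR1low cells of day 3 differed from Ly6clow/CX3CR1high cells of the uninjured heart. Here 3 of 4 members rose and 0 fell, beside 16.3% of all tested miRNAs called higher and 39% called lower. The share called lower depended on the floor. With the highest floor, the largest of the arrays' lowest detected signals, 45 miRNAs were called higher and 26 lower, in place of 60 and 144. miR-15b-5p rose by 2.12 (SE 0.42, limma adjusted p = 0.0027), miR-16-5p by 1.73 (SE 0.50, adjusted p = 0.0116) and miR-15a-5p by 1.21 (SE 0.43, adjusted p = 0.03), and miR-195a-5p differed by 0.40 (SE 0.40, adjusted p = 0.428). The median of the 4 was 1.47 against -0.79 over the 369 tested miRNAs. All 3 risers were without overlap between groups, as were 65.6% of all tested miRNAs. Without day 0 replicate 2 only miR-15b-5p kept its call (miR-15a-5p adjusted p = 0.259, miR-16-5p adjusted p = 0.195). The call of miR-15a-5p also ended without day 3 replicate 1, 2 or 3 or day 30 replicate 1 (adjusted p = 0.0526, 0.091, 0.073 and 0.0562) and with only the groups compared in the fit (adjusted p = 0.0951).

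From day 3 to day 7, at which Ly6clow/CX3CR1high cells were sampled again, the same 3 members fell and none rose, beside 16% of all miRNAs called lower and 21.1% called higher. miR-15a-5p fell by 1.95 (SE 0.38, adjusted p = 0.0031), miR-15b-5p fell by 1.92 (SE 0.38, adjusted p = 0.00324) and miR-16-5p fell by 1.81 (SE 0.44, adjusted p = 0.00771). miR-195a-5p differed by -0.74 (SE 0.36, adjusted p = 0.107) and passed with quantile normalization (-1.24, adjusted p = 0.0344). In all 4 members the groups did not overlap, which was so for 64.2% of tested miRNAs. The median of the 4 was -1.86 against 0.61 over all tested miRNAs.

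Day 7 against day 0 compared cells of the same labelled profile after and without injury. None of the 4 members passed (limma adjusted p = 0.24 to 0.935, and 0 of 4 at an unadjusted p under 0.05), beside 3.79% of all miRNAs (3.25% higher and 0.542% lower). The groups of miR-15a-5p did not overlap, which was so for 19.5% of miRNAs. The changes were -0.73 for miR-15a-5p (SE 0.43), 0.20 for miR-15b-5p (SE 0.42), -0.08 for miR-16-5p (SE 0.50) and -0.34 for miR-195a-5p (SE 0.40). These groups were the dimmest, and with brightness as a covariate miR-15a-5p passed as lower (-1.12, adjusted p = 0.0492), beside 47 miRNAs called higher and 22 called lower.

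At day 30, when the lesion has healed to a scar, miR-15a-5p was higher than at day 0 by 2.18 (SE 0.47, adjusted p = 0.00394), a 4.54-fold difference. miR-195a-5p was higher by 1.69 (SE 0.44, adjusted p = 0.00762), against a day 0 mean in which 1 of 2 arrays did not detect it. miR-16-5p (1.03, adjusted p = 0.117) and miR-15b-5p (0.29, adjusted p = 0.595) did not pass. So 2 of 4 members were higher and 0 lower, beside 8.94% and 47.4% of all miRNAs. With the highest floor 38 miRNAs were called higher and 30 lower, in place of 33 and 175. miR-15a-5p, miR-15b-5p, miR-16-5p and miR-195a-5p all had groups without overlap, as had 78.3% of tested miRNAs. The call of miR-195a-5p ended when replicate 2 of day 0 (adjusted p = 0.0568) or replicate 1 of day 30 (adjusted p = 0.0683) was left out, or with only the groups compared in the fit (adjusted p = 0.0682), and with the slide as a block miR-16-5p passed (adjusted p = 0.0429).

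The same pair of members rose from day 7 to day 30. miR-15a-5p rose by 2.92 and miR-195a-5p by 2.03 (SE 0.40, adjusted p = 0.00164), a 4.08-fold difference, while 13.6% of all miRNAs were called higher and 34.1% lower. miR-15b-5p did not pass (0.08, SE 0.42, adjusted p = 0.888). miR-16-5p changed by 1.12 and did not pass, but did with the slide as a block (1.24, adjusted p = 0.0151) and in a fit to the authors' deposited table (1.18, adjusted p = 0.0478). Within slides 1 and 2 miR-15a-5p differed by 2.66 and 3.42 and miR-195a-5p by 1.98 and 2.11. Groups did not overlap in miR-15a-5p, miR-16-5p and miR-195a-5p, beside 71.3% of tested miRNAs. The calls of miR-15a-5p and miR-195a-5p held when any replicate was left out, and both were lost with brightness as a covariate (1.85, adjusted p = 0.107, and 1.34, adjusted p = 0.183). With that covariate 3.52% of all tested miRNAs were called here, against 47.7% without it.

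Day 30 against day 3 set the bright groups against each other, and here the members moved in opposite directions. miR-15b-5p fell by 1.83 (SE 0.42, adjusted p = 0.00778) and miR-195a-5p rose by 1.29 (SE 0.40, adjusted p = 0.0315). miR-15a-5p differed by 0.97 (SE 0.43, adjusted p = 0.105) and miR-16-5p by -0.70 (adjusted p = 0.291). The background was 9.76% of miRNAs called higher and 21.1% lower, and 74.5% had groups without overlap, among them all 4 members. miR-15a-5p passed with quantile normalization (1.27, adjusted p = 0.025), in a fit to the authors' deposited table (1.21, adjusted p = 0.0289) and with only the groups compared in the fit (0.97, adjusted p = 0.00986). The call of miR-195a-5p ended without day 3 replicate 1, 2 or 3, day 7 replicate 3 or day 30 replicate 1 (adjusted p = 0.0787, 0.113, 0.0732, 0.0548 and 0.2) or with no filter (adjusted p = 0.219), and that of miR-15b-5p without day 30 replicate 1 (adjusted p = 0.101).

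**Figure D4:**
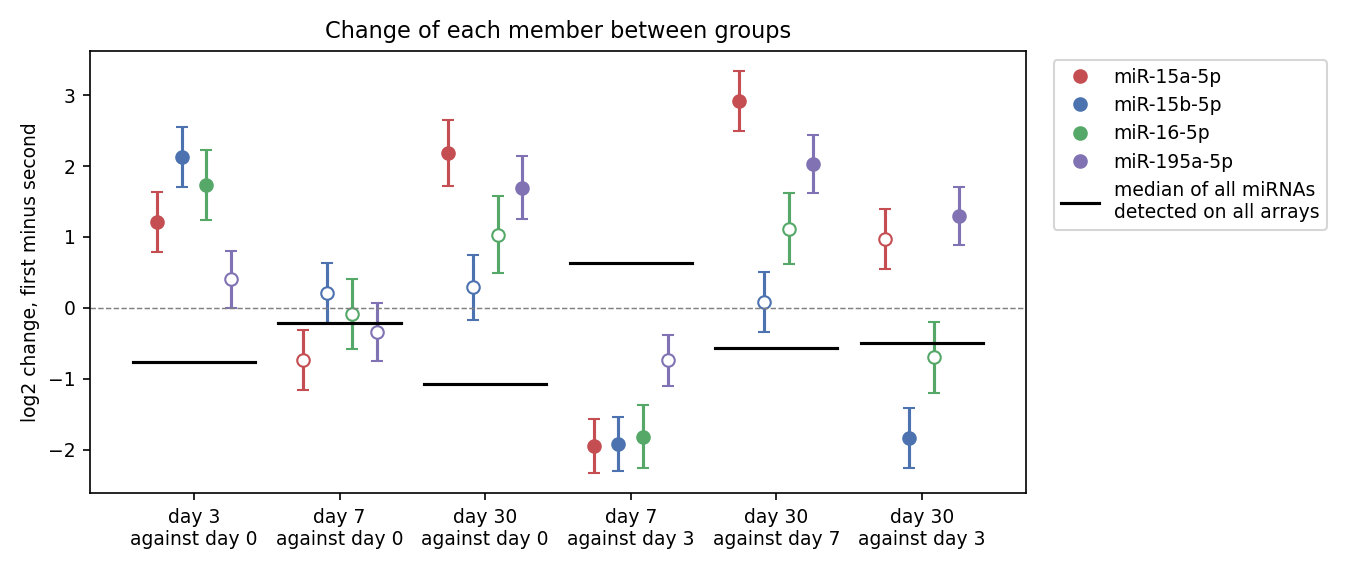
Log2 change of each member (y axis, mean of the first group minus mean of the second, error bars SE of the limma fit) in the 6 comparisons (x axis); filled points passed an adjusted p of 0.05, open points did not, and the black line is the median change of the 126 miRNAs used for scaling. For day 30 against day 3, miR-15b-5p is at -1.83 and miR-195a-5p at 1.29.

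The scaling and the brightness bear on these directions. For day 3 against day 0 the scaled values gave 60 miRNAs called higher and 144 lower, against 250 and 1 without scaling, 189 and 4 when the percentile was taken over all miRNAs, 93 and 65 with quantile normalization and 85 and 86 from the authors' deposited table. In the same order, day 7 against day 0 gave 12 and 2, then 45 and 0, 61 and 0, 29 and 10 and 15 and 7, and day 30 against day 0 gave 33 and 175, then 276 and 0, 195 and 4, 104 and 85 and 83 and 87. Day 7 against day 3 gave 78 and 59, then 2 and 206, 13 and 104, 67 and 76 and 78 and 77. The balance of calls over all miRNAs thus turned with the scaling, except for day 7 against day 0, where more were called higher each time. Day 30 against day 7 gave 50 and 126, then 234 and 10, 126 and 45, 101 and 96 and 93 and 102, and day 30 against day 3 gave 36 and 78, then 76 and 55, 62 and 63, 69 and 65 and 62 and 69. Every member change that passed kept its direction without scaling, and most were larger, such as 5.62 for miR-15b-5p at day 3 against day 0 and 6.51 for miR-15a-5p at day 30 against day 0. Between the dim groups (days 0 and 7) and the bright ones (days 3 and 30), all these changes were toward higher levels in the bright groups. Leaving out the scaling adds the difference in brightness in that same direction. The kept direction and larger size there are therefore no test of these changes. The fall of miR-15b-5p from day 3 to day 30 was smaller and not called (-0.998, adjusted p = 0.184), and with the percentile over all miRNAs neither it (-1.43, adjusted p = 0.0911) nor the rise of miR-195a-5p (1.70, adjusted p = 0.0938) passed. With brightness as a covariate, miR-15b-5p stayed called at day 3 against day 0 (2.78, adjusted p = 0.0287), at day 7 against day 3 (-2.36, adjusted p = 0.0156) and at day 30 against day 3 (-1.67, adjusted p = 0.00542). miR-15a-5p then lost its 4 calls, at 0.04 and 0.73 (days 3 and 30 against day 0), -1.16 (day 3 to day 7) and 1.85 (day 7 to day 30; adjusted p = 0.973, 0.601, 0.131 and 0.107). miR-16-5p turned to -0.62 for day 3 against day 0 (adjusted p = 0.604) and was -0.24 for day 7 against day 3 (adjusted p = 0.715). miR-195a-5p kept its call for day 30 against day 3 (1.11, adjusted p = 0.0194) and lost those for day 30 against day 0 (0.76, adjusted p = 0.576) and day 7 (1.34, adjusted p = 0.183).

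Other miRNAs of the family and its loci were read from a list of 22 names, of which 18 were on the array. RefSeq held 10 mature mouse miRNAs with the seed AGCAGCA, all 10 on the array: the 4 members, miR-322-5p, miR-497a-5p, miR-195b, miR-6342, miR-6353 and miR-6419. The last 4 of these were detected on no array, and 12 of the 18 listed miRNAs in all were never detected. The sequences of those that were measured, and of miR-503-5p, the neighbour of miR-322-5p with a seed that differs in its last base, are given for comparison with the members.
miR-322-5p: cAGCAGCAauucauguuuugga
miR-497a-5p: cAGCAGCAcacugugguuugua
miR-503-5p: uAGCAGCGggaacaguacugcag
Of the passenger strands of the members, miR-15a-3p, miR-16-1-3p, miR-16-2-3p and miR-195a-3p were detected on no array and miR-15b-3p on 3 of 11.

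Of the 6 listed miRNAs tested, miR-322-5p and miR-497a-5p had, like miR-15a-5p and miR-195a-5p, their highest level at day 30. miR-322-5p, the mouse counterpart of human miR-424, was at -2.33 ± 0.18 at day 0 (n = 2), -2.39 ± 0.24 at day 3 (n = 3), -3.29 ± 0.12 at day 7 (n = 3) and -1.29 ± 0.16 at day 30 (n = 2). It rose by 2.01 from day 7 to day 30 (adjusted p = 0.00161) and just missed the threshold against day 3 (1.10, adjusted p = 0.0501) and day 0 (1.04, adjusted p = 0.0547). miR-497a-5p, the cluster partner of miR-195a-5p, was at -5.16 ± 0.20, -5.66 ± 0.12, -5.27 ± 0.61 and -3.76 ± 0.17, with 1 of 2 day 0 arrays detecting it. It was higher at day 30 than at day 3 by 1.91 (adjusted p = 0.0081), than at day 7 by 1.52 (adjusted p = 0.0143) and than at day 0 by 1.40 (adjusted p = 0.0272).

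miR-503-5p was detected on all arrays of days 3 and 30 and on none of days 0 and 7. It was at least 3.02-fold lower at day 7 than at day 3 (limma adjusted p = 0.0155) and at least 2.53-fold higher at day 30 than at day 7 (adjusted p = 0.039). These bounds set the mean of the brighter group against the lowest signal that the dim arrays could detect. The p values are of limma's tests of the levels (-1.78 and 1.53), with background on the undetected arrays, and not of the bounds. miR-103-3p and miR-107-3p, whose seed GCAGCAU overlaps that of the family by a shift of position, passed in none of the 6 comparisons. miR-15b-3p was called lower at days 3 and 30 than at day 0, where no array detected it, so that its value there is background and the calls are not read as falls. Over the 6 tested miRNAs of the list 3 were called higher for day 30 against day 7 and 0 lower, beside 13.6% and 34.1% of all miRNAs.

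The miRNAs most like each member over the 10 samples were sought among the 123 miRNAs outside the family that were detected on all arrays. Pearson's r across samples that share arrays and scaling is given as a description. miR-15a-5p was most like miR-19b-3p (r = 0.98), miR-29a-3p (0.97), miR-27a-3p (0.95), miR-142a-3p (0.94) and miR-26b-5p (0.93). miR-15b-5p was most like miR-25-3p (0.95), miR-425-5p (0.93), let-7i-5p (0.93), miR-93-5p (0.91) and miR-223-3p (0.83). miR-16-5p was most like let-7f-5p (0.98), miR-107-3p (0.97), miR-103-3p (0.90), miR-223-3p (0.90) and let-7g-5p (0.89). miR-195a-5p was most like miR-29b-3p (0.96), miR-29c-3p (0.92), miR-27a-3p (0.90), miR-19b-3p (0.90) and miR-29a-3p (0.90).

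Among the members themselves the order differed from that of their sequences. miR-15a-5p and miR-195a-5p had the highest r (0.91) and miR-15b-5p and miR-195a-5p the lowest (0.09). miR-15a-5p and miR-15b-5p, which differ at 4 positions, had r = 0.38, and miR-16-5p and miR-195a-5p, the closest pair in sequence, had r = 0.54. miR-16-5p correlated with both of its cluster partners, at 0.77 with miR-15a-5p and 0.70 with miR-15b-5p. By Spearman's rank correlation the same pairs were highest (0.89) and lowest (0.38), with a narrower span. It gave 0.44 for miR-15a-5p and miR-15b-5p. For miR-16-5p it gave 0.72 with miR-195a-5p, 0.73 with miR-15a-5p and 0.68 with miR-15b-5p.

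Markers of the labelled cells and of others were read beside these changes. Of 6 myeloid markers on the array, miR-223-3p, miR-142a-3p, miR-511-3p and miR-146a-5p were detected on all arrays, and the summed scaled signal of the list spanned 4.92 to 8.73 (day 0), 14.3 to 17.9 (day 3), 2.72 to 4.34 (day 7) and 10.1 to 11.9 (day 30). The sum is mostly miR-223-3p, and the list did not move as one. From day 0 to day 3 miR-223-3p rose by 1.51 (limma adjusted p = 0.0112) and miR-142a-3p by 2.82 (adjusted p = 0.00237), while miR-146a-5p fell by 4.59 (adjusted p = 0.000357) and miR-511-3p fell by 3.42 (adjusted p = 0.0011). From day 7 to day 30 these 4 all rose (1.15 to 3.55, adjusted p = 0.000482 to 0.0478). The erythroid list is of weight here because red cells are rich in miR-16. Of its 4 miRNAs, miR-144-3p and miR-144-5p were detected on no array and miR-486a-5p on 3, but miR-451a, the most abundant miRNA of red cells, was detected on all arrays of days 3 and 30, on 1 of 3 at day 7 and on neither at day 0. Its levels were -4.49 ± 0.55 at day 3 (n = 3), -6.86 ± 0.53 at day 7 (n = 3) and -3.43 ± 0.26 at day 30 (n = 2), and it was at least 5.44-fold higher at day 30 than at day 0 (limma adjusted p = 0.00532) while day 3 exceeded day 0 at least 2.62-fold (adjusted p = 0.03). Here too the p values are of the tests of the levels (2.60 and 1.54) and not of the bounds. The summed scaled signal of the erythroid list spanned 0.0365 to 0.101 (day 0, with none of the 4 detected), 0.0356 to 0.0636 (day 3), 0.0215 to 0.0433 (day 7) and 0.0856 to 0.110 (day 30), in units in which 1 is the 75th percentile of an array. The part of red cells in the member changes was not tested.

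The cardiomyocyte list (6 miRNAs) had miR-133a-3p and miR-133b-3p detected on all arrays and miR-208a-3p, miR-208b-3p and miR-499-5p on none, with sums of 0.137 to 0.264 (day 0), 0.0249 to 0.0441 (day 3), 0.0917 to 0.131 (day 7) and 0.0566 to 0.0798 (day 30). Its sixth miRNA, miR-1a-3p, was detected on 0 of 2, 2 of 3, 1 of 3 and 3 of 3 arrays at days 0, 3, 7 and 30. It was higher at day 30 than at day 7 (1.88, limma adjusted p = 0.039) and day 3 (2.14, adjusted p = 0.0343), while miR-133a-3p and miR-133b-3p fell from day 7 to day 30 (-1.46, adjusted p = 0.0143, and -1.36, adjusted p = 0.0237). The cardiomyocyte sums also hold the background of the undetected miRNAs, which in scaled units was larger on the dim arrays of days 0 and 7. Endothelial miR-126a-3p was detected on all arrays, and the sum of the 2 endothelial miRNAs spanned 0.0738 to 0.442 (day 0), 0.309 to 0.402 (day 3), 0.298 to 0.346 (day 7) and 0.250 to 0.266 (day 30). Of 5 fibroblast and smooth muscle miRNAs, miR-145a-5p was detected on no array, and the sums were 0.0674 to 0.126, 0.0866 to 0.113, 0.176 to 0.433 and 0.196 to 0.213 at days 0, 3, 7 and 30. At day 0 only miR-199a-3p was detected, on 1 of 2 arrays, so that sum is largely background. Against day 0 miR-199a-3p was higher at days 3, 7 and 30 (1.29, 2.09 and 2.47, limma adjusted p = 0.0192, 0.0227 and 0.00168). miR-214-3p was higher at day 7 (2.63, adjusted p = 0.0393). Undetected at day 0, miR-199a-5p was not called and miR-143-3p was called lower at day 3 (-1.64, adjusted p = 0.0417). The day 0 value of miR-143-3p is background, so that call is not read as a fall. Lymphocyte miR-150-5p was detected on all arrays after injury and on neither at day 0, with scaled signals of 0.00928 to 0.0255 (day 0), 0.0145 to 0.0384 (day 3), 0.0243 to 0.0659 (day 7) and 0.00455 to 0.00647 (day 30). Their part in the member changes was not tested, and fewer cells of a type cannot be told apart from less of a miRNA per cell in such pooled RNA.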

How the data were processed

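Per the labels' protocols, each array received Cy3-labelled miRNA of 100 ng total RNA. Per the submitters' processing notes, signals come from Agilent Feature Extraction (release not given in the sources used here). Per the file headers, each deposited scanner file holds a total gene signal and its error (intensity in scanner units, not logged) and a detection flag for 1247 miRNAs and 21 controls. The authors' deposited table holds log2 values of 317 miRNAs, with the same distribution on every array. Array number and brightness limit the precision.

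Signals were divided by each array's 75th percentile over the 126 miRNAs detected everywhere, floored at 0.00271 (log2 of -8.53) and logged. miRNAs detected on at least 2 of 11 arrays (369) entered a limma 3.58.1 fit (R 4.3.3) of all 4 groups, with 6 residual degrees of freedom, 6 pairwise moderated tests, an F test, and Benjamini-Hochberg adjustment within each comparison; calls are at an adjusted p of 0.05. Relative signals were refitted likewise after subtracting a member's log2 signal. The tests were tried on simulated data. Slides were told apart by the slide code in the names of the deposited files. Members, lists and tests were chosen with earlier results of these data known. Named miRNAs are the members, the list of related miRNAs, fixed marker lists and the 5 nearest miRNAs of each member. Sequences were matched by name to RefSeq (GRCm38.p6). Alternatives were other scalings, floors, filters, blocks, brightness as a covariate, fewer groups and leaving out each array.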

Additional observations from a re-analysis of the deposited data

Results flagged for a closer look

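The change from the uninjured heart differed between day 7 and day 30 in 2 members, by the limma test of day 30 against day 7. The difference was 2.92 for miR-15a-5p, which was -0.73 at day 7 and 2.18 at day 30 against day 0. It was 2.03 for miR-195a-5p, which was -0.34 and 1.69. With array brightness as a covariate neither passed (1.85, adjusted p = 0.107, and 1.34, adjusted p = 0.183), in a setting that called 3.52% of all tested miRNAs. Both changes share the day 0 arrays, and every day 30 array lay above every day 7 array in both members, as in 71.3% of all tested miRNAs either way. Groups of 2 or 3 samples were too small to test for single samples that stand apart.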

How the results depend on the processing

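The number of members called against day 0 was 3 (day 3), 0 (day 7) and 2 (day 30), and 3 from day 3 to day 7, 2 from day 7 to day 30 and 2 from day 3 to day 30, and stayed within 1.5 times of this in 115 of 138 recomputed counts. By this rule counts of 2 and 3, or of 3 and 4, are taken as alike, so a member lost or gained can go unseen. The recomputed counts also share most of their arrays. The number called for day 30 against day 0 was 4 without scaling (beside 74.8% of all miRNAs called) and with the percentile over all miRNAs (53.9%). For day 30 against day 7 it was also 4 in both settings (66.1% and 46.3%). For day 30 against day 3 it was 1 without scaling (35.5%) and 0 with that percentile (33.9%). With the filter on detection everywhere, which leaves out miR-195a-5p (64.3% of all miRNAs called), or only the groups compared (47.2%), day 30 against day 0 had 1 member called. From day 3 to day 30 the number was 1 with no filter (8.1% of all miRNAs called) and 4 with only the groups compared (54.5%). With brightness as a covariate it was 1 (days 3 and 7 against day 0, and day 7 against day 3), beside 18.4%, 18.7% and 15.7% of all miRNAs. It was 0 for day 30 against days 0 and 7, beside 0% and 3.52%. Leaving out a replicate gave 1 to 3 and 1 to 2 (days 3 and 30 against day 0) and 0 to 2 (day 30 against day 3).

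Among 546 recomputed member changes 19 changed sign, all but that of miR-16-5p at day 3 against day 0 in changes that had not passed. Day 7 against day 0 turned to 0.42, 1.07 and 0.54 without scaling and 0.59, 1.24 and 0.91 with the percentile over all miRNAs for miR-15a-5p, miR-16-5p and miR-195a-5p. miR-16-5p at day 30 against day 3 was 0.14 without scaling. With brightness as a covariate miR-16-5p was -0.62, -1.87 and -1.02 (day 3 against day 0, day 30 against days 0 and 7) and miR-195a-5p -0.35 (day 3 against day 0). Leaving out a replicate gave -0.25 to 0.74 for miR-195a-5p (day 3 against day 0), -0.27 to 0.33 and -0.87 to 0.32 for miR-15b-5p and miR-16-5p (day 7 against day 0), and -0.21 to 0.36 and -0.038 to 0.29 for miR-15b-5p (day 30 against days 0 and 7). Over all alternatives the share of miRNAs called against day 0 ran from 18.4% to 89% (day 3; 55.3% as reported), 0% to 81.1% (day 7; 3.79%) and 0% to 88.9% (day 30; 56.4%), and from 15.7% to 63.4% (day 3 to day 7; 37.1%), 3.52% to 66.1% (day 7 to day 30; 47.7%) and 7.48% to 54.5% (day 3 to day 30; 30.9%).

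Relative to miR-16-5p, miR-15a-5p passed for day 30 against day 3 with the highest floor (1.67), slide as a block (1.58), 11 separate arrays (1.73), only the groups compared (1.67) and brightness (1.95). It passed for day 30 against day 0 with slide as a block (1.15) and brightness (2.60), and missed for day 30 against day 7 with only the groups compared (1.80). The replicate numbers were not taken to pair the samples (correlations of same-numbered deviations -0.26 to 0.59, other pairs -0.69 to 0.63). With a replicate block over 11 separate arrays miR-16-5p passed for day 30 against day 7 (1.06) and miR-15a-5p for day 30 against day 3 (0.98), and miR-15a-5p over miR-16-5p passed at 1.25 (day 30 against day 0) and 1.73 (day 30 against day 3). miR-15b-5p over miR-16-5p passed with slide as a block for day 30 against day 7 (-1.21) and with only the groups compared for day 30 against day 3 (-1.14). With brightness it passed for day 3 against day 0 (3.40) and turned to 2.98 and 1.70 for day 30 against days 0 and 7; miR-15a-5p turned to 0.65 for day 3 against day 0, and miR-195a-5p to 0.26 and 0.27 for days 3 and 7 against day 0. miR-195a-5p over miR-16-5p passed with brightness for day 30 against days 0, 7 and 3 (2.63, 2.36 and 2.37), and for day 30 against day 7 with quantile normalization (1.498) and from the authors' deposited table (1.67). With the highest floor and a replicate block it passed for day 3 against day 0 (-1.42 and -1.24), day 7 against day 3 (1.25 and 1.08) and day 30 against day 3 (1.99 and 2.06), and with 11 separate arrays in the first and last of these (-1.33 and 2.06). miR-15a-5p over miR-15b-5p, an added comparison, passed for day 3 against day 0 with the highest floor (-0.91) and missed for day 30 against day 0 with only the groups compared (1.89). With brightness it was -0.38 (day 0 to day 30), 1.20 (day 3 to day 7) and 1.17 (day 7 to day 30). Leaving out a replicate gave, over miR-16-5p, -0.32 to 0.63 for miR-15b-5p (day 7 against day 0), -0.29 to 0.080 and -0.71 to 0.24 for miR-15a-5p and miR-15b-5p (day 7 against day 3) and 1.67 to 2.00 for miR-15a-5p (day 30 against day 7), and for miR-15a-5p over miR-15b-5p 1.80 to 1.99 (day 30 against day 0) and -0.33 to 0.42 (day 7 against day 3). Less the median signal of undetected miRNAs, the share of miR-195a-5p moved to 0.413% at day 0 and 0.608% at day 7, and the other shares moved by less than their SD. The cause of these changes was not tested.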
